A study of Mus musculus with 162 samples.

Results

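T and B lymphocyte genes were followed across 9 organs of mice fasted for up to 22 h. The genes are Cd3d, Cd3e, Cd4, Cd8a, Lck, Foxp3, Cd79a, Ms4a1 and Ccr7, taken by symbol from the count table, which makes 9 of its 53686 genes. All 9 symbols were found. Of the 53686 genes, 15167 had no count in any library.

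The study profiled mRNA from 18 adult male C57BL/6J mice, and each mouse gave all 9 organs, so that 162 libraries were made. At each of 6 time points 3 mice were sampled: mice with free access to food (0 h) and mice without food for 2, 8, 12, 18 or 22 h, all with water. Every mouse was killed at the same time of day after the dark phase had begun, so the fasts started at different clock times. The organs were olfactory bulb (OB), brain, that is telencephalon and diencephalon (BRN), cerebellum (CBL), brainstem (BST), stomach (STM), liver (LIV), interscapular brown fat (iBAT), perigonadal white fat (pgWAT) and posterior-subcutaneous white fat (psWAT). RNA of pgWAT and psWAT came from Qiazol and a kit for lipid-rich tissue, while the other organs were lysed in RLT buffer and taken through RNeasy columns. Extraction and the difference between white fat and the other organs cannot be told apart. The comparisons ask where these genes are read, how they vary from library to library, and whether they move with the length of the fast.

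T lymphocytes read antigen through a receptor whose CD3 chains pass the signal into the cell, where the kinase Lck starts the cascade, and B lymphocytes through a surface immunoglobulin that signals by way of CD79 chains. Naive lymphocytes leave the blood for lymph nodes across specialised venules, guided by adhesion molecules and by chemokines that Ccr7 recognises. Lymph nodes lie embedded in fat, the inguinal node among them in the subcutaneous fat of the flank, and fat tissue also holds resident T cells.

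Levels are counts-per-million (CPM) of the library total. Among the libraries that the study kept, totals, in mega-counts (M), were lowest in a BRN library at 3.05 M and highest in an iBAT library at 27.8 M. By organ they spanned 8.22 to 17.7 M in OB, 3.05 to 12.1 in BRN, 6.49 to 22.1 in CBL, 7.00 to 11.8 in BST, 6.85 to 13.8 in STM, 6.96 to 12.5 in LIV, 3.16 to 27.8 in iBAT, 5.78 to 19.8 in pgWAT and 4.10 to 9.80 in psWAT. A count of 0 allows up to 3 counts, which in these libraries stands for 0.108 to 0.985 CPM, and this limit covers counting error only. Most values of these genes outside psWAT lie near it. The study left out 5 libraries (BRN 8 h replicate 3, BRN 18 h replicate 1, STM 12 h replicate 3, iBAT 22 h replicate 1 and psWAT 22 h replicate 2), and the values here leave them out too unless stated.

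Several libraries stood apart. By a list of 8 neuron and glia genes psWAT 12 h replicate 3 had a summed level of 6889 CPM, against 73.1 to 457 CPM in the other 16 psWAT libraries, with Mbp as the list's most abundant gene in psWAT. The 6 skeletal muscle genes summed to 32759.7 CPM in psWAT 2 h replicate 2, 23451 in 8 h replicate 2 and 21111 in 18 h replicate 3, with a psWAT median of 489. In pgWAT 22 h replicate 2 the 6 genes of the male reproductive tract summed to 22119 CPM, almost all of it Crisp1, and they summed to 9662 CPM in 18 h replicate 3, 2902 in 2 h replicate 2 and 541 in 22 h replicate 3. The shallowest iBAT library, 22 h replicate 2, had the highest level of Lck, Cd3d, Cd3e and Cd8a found in any library outside psWAT. STM 8 h replicate 2 was high in B lymphocyte genes, at 249 CPM for a list of 18 against 36.7 to 99.5 CPM in the other STM libraries. Their part in the results was not tested beyond the values given with and without them.

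Lymphocyte genes were read at high levels in psWAT and near the detection limit in most other organs. The summed level of the 9 genes had a median of 1618 CPM over 17 psWAT libraries (lowest 212, highest 2603). It was 14.4 CPM in BRN (7.88 to 24.4), 12.4 in pgWAT (8.04 to 21.8), 7.90 in LIV (4.64 to 13.7) and 3.33 in STM (1.22 to 14.6). OB, iBAT, BST and CBL followed with 3.16, 3.03, 2.08 and 1.64 CPM. In bulk RNA, fewer cells of a type and less RNA per cell cannot be told apart.

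**Figure D1:**
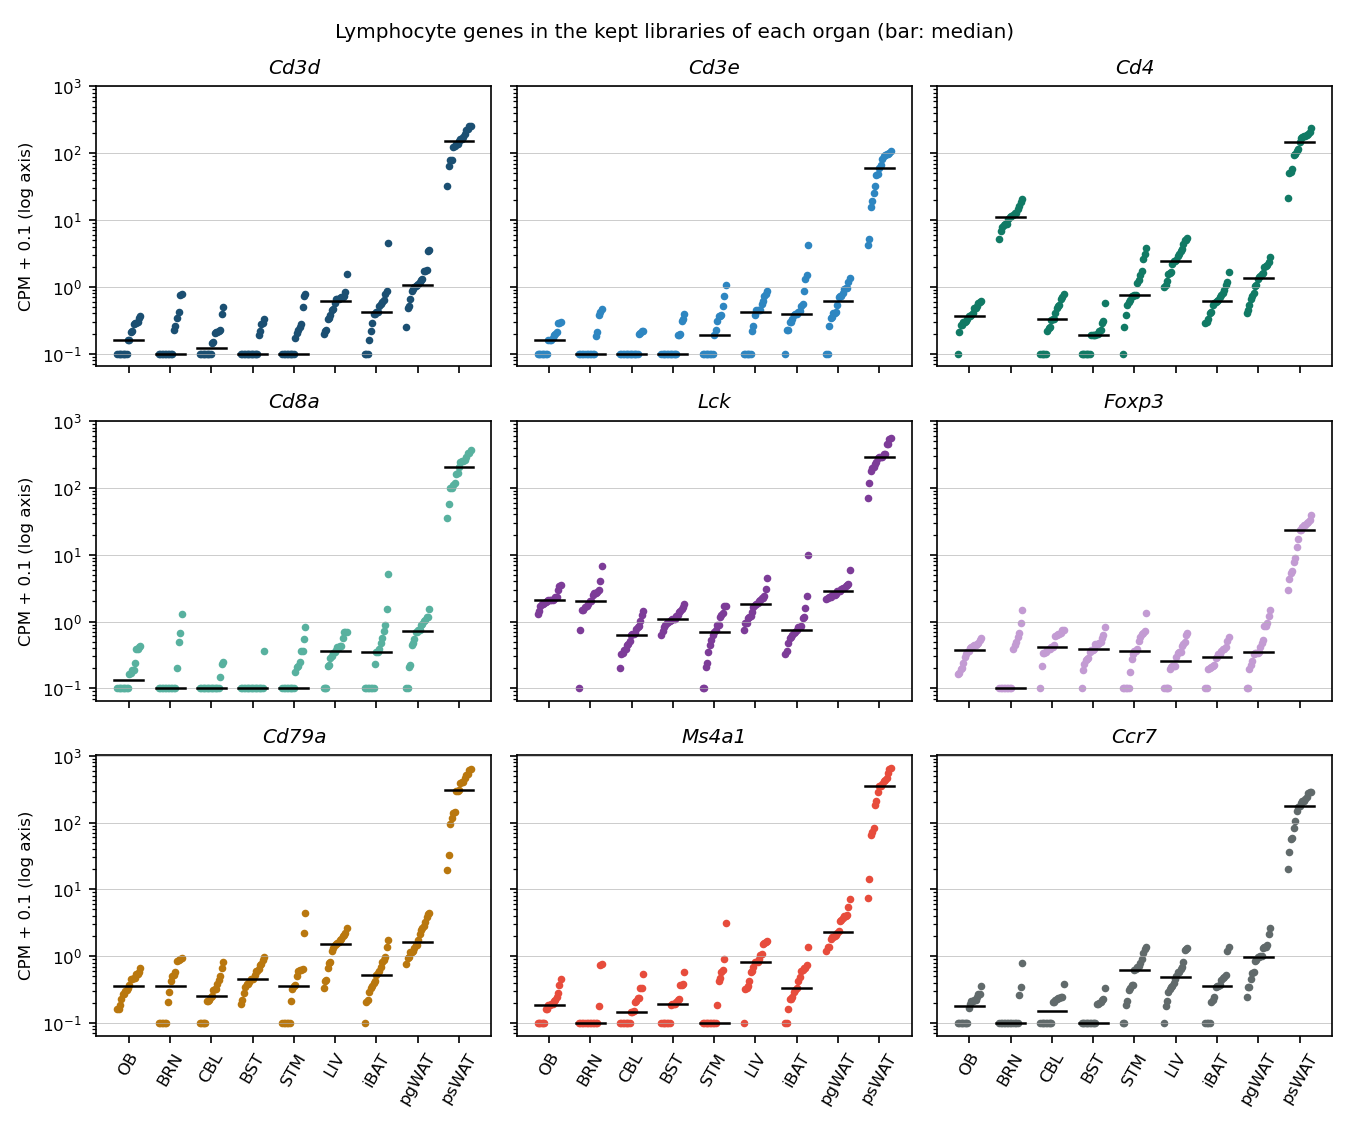
Level of each of the 9 lymphocyte genes in every kept library by organ, in CPM on a log axis with an offset of 0.1. Points are libraries and bars medians. The psWAT medians lie far above those of the other organs for every gene. The lowest psWAT library lies below the highest iBAT library for Cd3e. For Cd4 and Ms4a1 it comes close to single libraries of other organs.

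Cd3d and Cd3e encode the delta and epsilon chains of CD3 and lie 11400.0 bases apart on chromosome 9 (GRCm38, Cd3d chr9:44981786-44987339 on the plus strand and Cd3e chr9:44998740-45009627 on the minus strand). Cd3d ran from 32.1 CPM to 259 CPM over the psWAT libraries, with a median of 151.9 CPM. For Cd3e the psWAT values were 4.08, 59.1 and 109.6 CPM (lowest, median, highest). Both were highest in psWAT by a wide margin, with a psWAT median 155.8 times that of pgWAT, the next organ, for Cd3d and 113.3 times for Cd3e. Outside psWAT the largest Cd3d value was 4.44 CPM (14 counts) and the largest Cd3e value 4.12 CPM (13 counts), both in iBAT 22 h replicate 2. All 17 psWAT libraries exceeded all 140 other libraries for Cd3d, and 16 of 17 did for Cd3e, the exception being psWAT 8 h replicate 1. The share of all genes that separate psWAT in this way was not counted. In pgWAT the medians were 0.975 CPM for Cd3d (0.154 to 3.50) and 0.522 CPM for Cd3e (0 to 1.24). LIV followed with 0.516 and 0.313 CPM and iBAT with 0.313 and 0.292 CPM. Cd3d was at 0 in 52 and Cd3e in 62 of the 140 libraries outside psWAT.

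Cd4 and Cd8a encode the coreceptors that bind MHC class II and class I and part T cells into helper and cytotoxic lines (Cd4 chr6:124864692-124888221, minus strand, Cd8a chr6:71373427-71379173, plus strand). In psWAT Cd4 had 21.4, 148.1 and 241 CPM (lowest, median, highest) and Cd8a 35.2, 205 and 373 CPM. Elsewhere they parted. BRN held Cd4 at a median of 11.2 CPM, from 5.11 to 20.3 CPM, in all 16 libraries, and had medians of 0 for Cd3d, Cd3e and Cd8a. BRN 12 h replicate 2, the library with the highest Cd4 outside psWAT, had 64 counts of Cd4 and none of Cd3d, Cd3e or Cd8a. In BRN, then, Cd4 was read while Cd3d, Cd3e and Cd8a were at or near 0. Cd4 was also read in LIV at 2.37 CPM (0.891 to 5.25), pgWAT at 1.25 (0.308 to 2.68), STM at 0.661 (0 to 3.72) and iBAT at 0.519 (0.188 to 1.58). Cd8a reached a median of 0.625 CPM in pgWAT (0 to 1.44), 0.263 in LIV and 0.246 in iBAT, where 1 library reached 5.07, and was at 0 in 74 of 140 libraries outside psWAT. The psWAT median stood 13.3 times above BRN for Cd4 and 327 times above pgWAT for Cd8a.

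Lck encodes the kinase that phosphorylates the CD3 chains (chr4:129548344-129573641, minus strand). Over psWAT libraries it had 69.6, 285 and 554 CPM (lowest, median, highest), 103.6 times the pgWAT median at the middle. It was the most widely read of the 9 genes, at 0 in 3 of 140 libraries outside psWAT. The medians were 2.75 CPM in pgWAT (2.08 to 5.81), 1.99 in OB (1.17 to 3.43), 1.92 in BRN (0 to 6.62), 1.70 in LIV (0.636 to 4.45), 0.976 in BST, 0.648 in iBAT (0.225 to 9.82), 0.597 in STM and 0.537 in CBL. OB and BRN thus held Lck at levels close to LIV while Cd3d and Cd3e were at or near 0 there.

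Foxp3 encodes the transcription factor of regulatory T cells and lies on the X chromosome (chrX:7573644-7595245, plus strand). Its psWAT values were 2.89, 23.2 and 38.9 CPM. In the other organs the medians were between 0 in BRN and 0.313 CPM in CBL, and the highest library, pgWAT 12 h replicate 1, had 1.39 CPM. Outside psWAT no organ had more than 9 libraries with over 3 counts of Foxp3, and CBL, with 9 of 18, had the most.

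Cd79a encodes the alpha chain that signals for the B cell receptor, and Ms4a1 encodes CD20, a membrane protein of B cells before the plasma cell stage (Cd79a chr7:24897381-24902197, plus strand, Ms4a1 chr19:11249675-11266241, minus strand). Cd79a had 19.2, 304 and 626 CPM in psWAT and Ms4a1 7.30, 357 and 654 CPM. By highest over lowest value these were the widest spreads of the set, at 32.6 times for Cd79a and 89.6 times for Ms4a1. By the SD of log2 levels Ms4a1 (1.90) was widest, followed by Cd3e (1.49) and Cd79a (1.47). In pgWAT the medians were 1.504 CPM (0.664 to 4.30) and 2.18 CPM (1.09 to 6.99), with every one of the 18 libraries above 0. LIV had 1.40 CPM of Cd79a (0.228 to 2.59) and 0.704 of Ms4a1 (0 to 1.56), and iBAT 0.430 (0 to 1.63) and 0.236 (0 to 1.27). STM 8 h replicate 2 reached 4.28 CPM of Cd79a (41 counts) and 3.03 CPM of Ms4a1 (29 counts), where the STM medians were 0.263 and 0. The psWAT median was 202 times the pgWAT median for Cd79a and 163 times for Ms4a1.

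Ccr7 encodes the chemokine receptor that leads naive T cells, B cells and mature dendritic cells into lymph nodes (chr11:99144196-99155077, minus strand). It had 20.04, 175 and 289 CPM in psWAT, 203 times the pgWAT median of 0.865 CPM (0.147 to 2.55) at the middle. STM came next with 0.525 CPM, then LIV with 0.383 and iBAT with 0.255, and 48 of the 140 libraries outside psWAT had no count. The highest of those, pgWAT 18 h replicate 2, had 2.55 CPM and was also the highest outside psWAT for Cd79a.

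Between genes, levels can be set side by side per kilobase of merged exon. On that scale the psWAT medians were highest for Cd79a with 208 CPM per kb, then Lck with 97.4, Ccr7 with 88.7, Cd3d with 83.7, Ms4a1 with 57.6, Cd8a with 56.2, Cd4 with 36.7, Cd3e with 14.5 and Foxp3 with 5.07. On this scale the B cell receptor gene Cd79a stood above every T cell gene, and Cd3e stood well under Cd3d although both chains belong to 1 receptor complex. The scale divides by all annotated exon bases (1457 for Cd79a, 1815 for Cd3d and 4080 for Cd3e) and not by the transcripts expressed. The order of genes therefore depends on the annotation.

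The order of organs was tested between neighbours in the order of median CPM, with a two-sided permutation test of mean log2(CPM + 0.5) for each of 9 genes times 8 neighbour pairs, 72 in all. These tests did not pair the organs of the same mouse. 25 of the 72 pairs differed at a Benjamini-Hochberg adjusted p under 0.05. psWAT differed from the organ next in order for all 9 genes. For Cd3d and Cd8a the order went on with pgWAT, LIV and iBAT, and pgWAT differed from LIV while LIV did not differ from iBAT beyond the spread. Cd3e had the same first 4 organs, with no difference among pgWAT, LIV and iBAT. Cd4 went from psWAT to BRN, LIV and pgWAT, each differing from the next. For Lck pgWAT differed from OB, while OB, BRN and LIV formed a run without differences. For Ms4a1 the first 5 organs were psWAT, pgWAT, LIV, iBAT and BST, each differing from the next. Many levels low in these orders lie under the 0.5 CPM added and near the detection limit. Ms4a1, with medians of 0.236 CPM in iBAT and 0.0898 in BST, had over 3 counts in 7 of 17 and 1 of 18 libraries there. Differences between such organs rest on few counts. In Cd79a pgWAT did not differ from LIV, and LIV differed from iBAT. For Ccr7 pgWAT differed from STM, and STM, LIV and iBAT formed a run without differences. Foxp3 had no difference between neighbours after psWAT.

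In psWAT, mice of the same time point differed widely. At 0 h the 3 libraries had 32.0, 59.1 and 81.9 CPM of Cd3e and 118.4, 304 and 626 CPM of Cd79a (replicates 1, 2 and 3). After 2 h they had 96.7, 109.6 and 93.6 CPM of Cd3e and 515, 300.3 and 533 CPM of Cd79a. After 8 h the values were 4.08, 48.5 and 19.3 CPM of Cd3e and 19.2, 393 and 144.8 CPM of Cd79a. All libraries at 2 h were thus high in Cd3e, and 8 h held the lowest library of the set. At 12 h Cd3e had 100.9, 97.5 and 5.03 CPM and Cd79a 398, 412 and 32.4 CPM. At 18 h they had 89.3, 67.3 and 25.5 CPM and 457, 292 and 137.9 CPM. At 22 h the 2 kept libraries, replicates 1 and 3, had 47.8 and 15.6 CPM of Cd3e and 606 and 95.9 CPM of Cd79a. The 12 h group held libraries among the highest and, in replicate 3, the next to lowest for both genes, so every group but 2 h spread widely.

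The 9 genes shared their lowest library but not their highest. The lowest psWAT library was 8 h replicate 1 for each of the 9 genes, with a highest value over lowest of 7.95 for Lck, 8.06 for Cd3d, 10.6 for Cd8a, 11.3 for Cd4, 13.5 for Foxp3, 14.4 for Ccr7 and 26.9 for Cd3e. The highest was 22 h replicate 1 for Cd3d and Cd4, 12 h replicate 2 for Cd8a and Lck, 2 h replicate 3 for Foxp3 and Ccr7, 2 h replicate 2 for Cd3e and 0 h replicate 3 for both B cell genes. Low values recurred in the fed library 0 h replicate 1, in 8 h replicate 3 and in 12 h replicate 3. For Cd3e, Cd8a, Foxp3, Ccr7 and the B cell genes 18 h replicate 3 and 22 h replicate 3 were low as well. In these libraries Cd3d was 163.6 and 191.5 CPM, above the median of 151.9. Of the sum of squares of log2(CPM + 0.5) over the 17 libraries, the time points took 21.5% (Cd79a) to 44.8% (Cd3d), and the rest lay between mice of the same time point. Where nothing changes with time, 31.2% is expected for this number of groups and libraries.

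**Figure D2:**
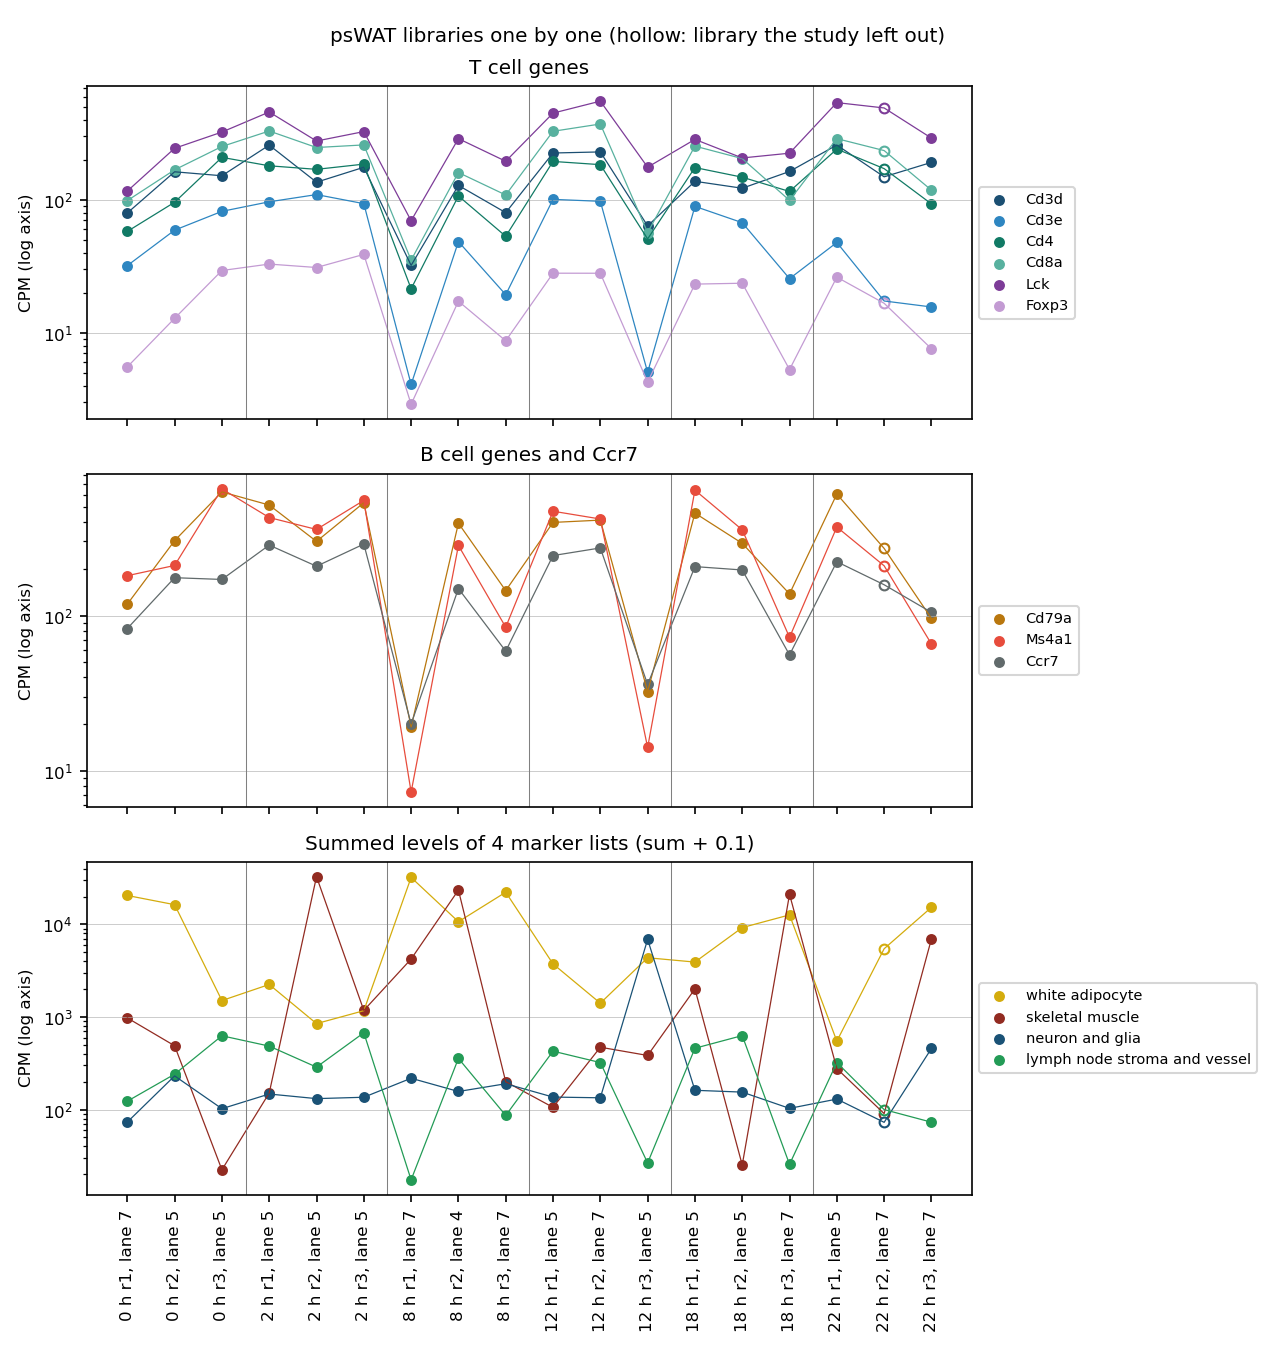
Level of the 9 lymphocyte genes, and below them summed levels of 4 marker lists, in each psWAT library in order of fasting time, in CPM on a log axis, with thin lines joining the points of a gene and hollow points for the library that the study left out. The genes drop together in 8 h replicate 1 and 12 h replicate 3, where Cd3e stood at 4.08 and 5.03 CPM.

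The lanes in the library names split psWAT into 10 libraries of lane 5, 6 of lane 7 and 1 of lane 4. All libraries at 2 h, the group that did not spread widely, were of lane 5, and every other time point held more than 1 lane. Median Cd3e was 85.6 CPM in lane 5 and 22.4 in lane 7, and median Cd79a 428 and 128 CPM. For Ms4a1 the lane medians were 399.8 and 78.3, and for Cd3d 157.3 and 121.8 CPM. Lane 7 had the lower median for all 9 genes, yet 12 h replicate 2 of lane 7 had the highest Cd8a and Lck of psWAT, and 12 h replicate 3 of lane 5 had next to the lowest Cd3e. Lane and the mouse cannot be told apart in psWAT.

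Markers of other cells also differed between psWAT libraries. The 8 white adipocyte genes summed to 32149 CPM in 8 h replicate 1, where lymphocyte genes were lowest, and to 548 CPM in 22 h replicate 1, where the 9 lymphocyte genes summed to 2603 CPM, with a median of 4362 and Fabp4 the most abundant gene at 2392 CPM. Adipoq, which encodes the adipocyte hormone adiponectin, ran from 36.4 CPM in 22 h replicate 1 to 2803 CPM in 8 h replicate 1, while 12 h replicate 3, next to the lowest in Cd3e, had 347 CPM. In pgWAT the same 8 genes had a median sum of 33509.6 CPM (4559 to 46429). All 8 were read in psWAT, at levels that differed widely between libraries, and in iBAT they had a median sum of 16669 CPM (11810 to 26005).

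The remaining lists set the lymphocyte genes in their surroundings. A list of 20 T cell receptor and signalling genes summed to 461, 2455 and 4194 CPM in psWAT (lowest, median, highest), with Thy1 the most abundant gene at 294 CPM. The 18 further B cell genes summed to 558, 7113 and 11216 CPM, led by Ighm at 1632 CPM, and the 8 plasma cell genes to 73.7, 1332 and 4276 CPM, led by Igkc at 972 CPM. Lymphocyte homing genes (10) had 449, 1873 and 2912 CPM. Every one of these lists was lowest in 8 h replicate 1. The 8 genes of lymph node stroma and vessels summed to 17.3 CPM in 8 h replicate 1, 322 CPM at the median and 675 CPM in 2 h replicate 3. Its most abundant genes were Cxcl13, the chemokine of B cell follicles, at a median of 132.2 CPM and Glycam1, a mucin made by high endothelial venules, at 128 CPM. Ccl21a, a Ccr7 ligand, had a median of 15.5 CPM. In pgWAT the stroma list had a median of 12.1 CPM (5.85 to 42.8), and Glycam1 was at 0 in 13 of 18 pgWAT and 12 of 17 iBAT libraries. The part of these cells in the lymphocyte values was not tested.

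A thymic list of 8 genes summed to 56.4, 145.9 and 477 CPM in psWAT, almost all of it Cd1d1 at a median of 134.9 CPM. Psmb11 had no count in any of the 17 libraries, Ptcra none in 13, Foxn1 none in 15, Rag2 none in 11 and Rag1 none in 6. Dntt and Aire had medians of 2.91 and 4.59 CPM. The 8 pan-leukocyte genes summed to 911, 4671 and 8088 CPM, led by Coro1a at 1241 CPM, and 8 dendritic cell genes to 99.8, 561 and 936 CPM, led by Fscn1. Macrophage genes (10, led by Lyz2) spread less, with 557, 1380.3 and 2926 CPM, and so did 10 regulatory and helper T cell genes, with 106, 204 and 274 CPM. The 10 genes of cytotoxic and NK cells had 89, 509 and 802 CPM, led by Ccl5.

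The balance among the lymphocyte genes differed from library to library. The ratio of Cd3e to Cd3d was 0.0790 in 12 h replicate 3 and 0.0815 in 22 h replicate 3, and 0.807 in 2 h replicate 2, although both chains serve the same receptor. Cd79a over Cd3e ran from 2.74 in 2 h replicate 2 to 12.7 in 22 h replicate 1. Cd8a over Cd4 was narrower, from 0.857 in 18 h replicate 3 to 2.05 in 8 h replicate 3, and Ms4a1 over Cd79a ran from 0.381 in 8 h replicate 1 to 1.53 in 0 h replicate 1. The Cd3e and Cd3d pair was also set against a length slope, the slope of a library's log2 deviation from the psWAT median on log2 exon length over 12123 genes. The log2 ratio of Cd3e to Cd3d had Pearson's r = 0.321 with that slope (permutation p = 0.207, adjusted 0.331) and Spearman's rho = 0.576 (permutation p = 0.0162, adjusted 0.0260), with r = 0.310 without the 2 libraries farthest from the median and r = 0.112 in lane 5 (n = 10, permutation p = 0.745), where rho was 0.539 (permutation p = 0.114). In lane 7 (n = 6) r was 0.649 (exact permutation p = 0.174) and rho 0.714 (exact permutation p = 0.136). The 2 measures of correlation thus gave different calls.

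A T cell and a B cell gene moved together over psWAT libraries. For Cd3e and Cd79a, r of log2(CPM + 0.5) over 17 libraries was 0.939 (permutation p = 1e-05, the smallest that 100000 permutations can give, adjusted over 9 organs 9e-05) and rho was 0.684 (p = 0.00352, adjusted 0.0317, by permutation). Without the 2 libraries farthest from the median of Cd3e, 8 h replicate 1 and 12 h replicate 3, r was 0.825. Within lane 5 (n = 10) r was 0.894 (permutation p = 0.0580) and rho 0.115 (permutation p = 0.758), with r = 0.340 without the 2 farthest libraries. In lane 7 (n = 6) r was 0.966 (exact permutation p = 0.0139) and rho 0.771 (exact permutation p = 0.103). Within lane 5, then, a relation by rank was not detected. In iBAT r was 0.546 (permutation p = 0.0231, adjusted 0.104) and rho 0.363 (p = 0.153, adjusted 0.687, by permutation). In OB, BRN, BST, STM, LIV and pgWAT r lay between -0.176 and 0.238, with an adjusted permutation p of 0.863 for each, and their highest Cd3e count was 13. All permutation tests of correlation were two-sided. In CBL Cd3e was at 0 in 14 of 18 libraries, in a cluster apart from the rest, so no r is given for it, and its p counts among the 9 in the adjustment.

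Among 8 relations over psWAT libraries chosen after values were seen, 4 concern cell markers and 4 the length slope. Cd3e had r = -0.554 with Adipoq (permutation p = 0.0201, adjusted 0.0402) and rho = -0.642 (adjusted 0.0144), and Cd79a had r = -0.600 (permutation p = 0.00920, adjusted 0.0245) and rho = -0.699 (adjusted 0.00632). Within lane 5 (n = 10) the 2 r were -0.163 and -0.319 (permutation p = 0.673 and 0.403) and in lane 7 (n = 6) -0.779 and -0.736 (exact permutation p = 0.117 and 0.144), so the relation with Adipoq was not detected within a lane. With Glycam1, Cd3e had r = 0.937 (permutation p = 1e-05, adjusted 4e-05) and rho = 0.750 (adjusted 0.00312), and Cd79a with Cxcl13 had r = 0.902 (permutation p = 1e-05, adjusted 4e-05) and rho = 0.858 (adjusted 0.00016). Within lane 5 these r were 0.929 (permutation p = 0.0227) and 0.950 (permutation p = 0.00453) and the rho 0.333 (permutation p = 0.3502) and 0.685 (permutation p = 0.0341). In lane 7 the r were 0.939 and 0.743 (exact permutation p = 0.0194 and 0.0708) and the rho 0.829 and 0.714 (exact permutation p = 0.0583 and 0.136). Without the 2 farthest libraries r was -0.642, -0.720, 0.876 and 0.821 in the order given. Over all 17 libraries Cd3e and Cd79a were thus high where Adipoq was low, Cd3e where Glycam1 was high and Cd79a where Cxcl13 was high. Within lane 5 a relation of Cd3e with Glycam1 by rank was not detected. Cd3d, Cd3e and Cd79a had r of -0.226, 0.0963 and -0.00134 with the length slope, with adjusted permutation p of 0.510, 0.818 and 0.996. The 3 rho were -0.265, 0.395 and 0.137 (adjusted p = 0.345, 0.156 and 0.599, by permutation). Within lane 5 the r were -0.589, -0.192 and -0.349 (permutation p = 0.0756, 0.633 and 0.284) and the rho -0.806, 0.20 and -0.503 (permutation p = 0.00718, 0.586 and 0.143), with p not adjusted. In lane 7 (n = 6) the r were -0.407, 0.116 and 0.0703 and the rho 0.0286, 0.371 and 0.6. None of these had an exact permutation p under 0.05.

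Over the 17 psWAT libraries and 16718 genes, the 10 genes whose log2(CPM + 0.5) was most like that of Cd3e were Cd6, Cd96, Ms4a6b, Hs3st3b1, Sh2d2a, S1pr4, Tes, Gimap4, Il18r1 and Parvg, with r from 0.991 to 0.982. For Cd79a the 7 nearest were Il2rg, Cd79b, Gm32220, Tnfrsf13c, Ighd, H2-DMa and H2-Ob, with r from 0.995 to 0.988. The median r over all genes was 0.203 with Cd3e and 0.218 with Cd79a. Of the 10 nearest to Cd3e, Cd6 stands in the T cell list, and of the 7 nearest to Cd79a, 3 stand in the B cell list. Ms4a1 ranked 32 in likeness to Cd3e and 68 in likeness to Cd79a. Farthest from Cd3e among the 9 genes were Cd3d and Lck, which ranked 2696 (r = 0.756) and 3277 (r = 0.719) of 16718. Thus 2 genes of the T cell receptor path were less like Cd3e than the B cell genes Ms4a1 and Cd79a were.

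Because each mouse gave all organs, the summed level of the 9 genes in psWAT could be set against the same mouse's other organs. Pearson's r was -0.198 with pgWAT (17 mice), -0.396 with iBAT (16 mice) and 0.137 with LIV (17 mice), with permutation p of 0.448, 0.128 and 0.597, adjusted over the 3 relations to 0.597, 0.384 and 0.597. The rho were -0.162, -0.303 and 0.189 (permutation p = 0.534, 0.255 and 0.466, each adjusted to 0.534), and r without the 2 farthest mice was 0.0634, -0.0961 and 0.385. A mouse with much lymphocyte RNA in psWAT was not shown to have more or less of it in these organs.

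The fat depots were compared in 1 fit of 52 libraries with the mean of the 6 time points in each depot. A gene was called where the adjusted p was below 0.05 with a log2 fold change beyond 1 in either direction. From psWAT to pgWAT the differences were large for T cell and B cell genes alike: Cd8a was higher by 8.13 on the log2 scale (SE 0.400), Ccr7 by 7.24 (SE 0.340), Cd79a by 7.10 (SE 0.407) and Cd3d by 6.87 (SE 0.285), each in 17 of 17 psWAT libraries against all of pgWAT. Cd4 was higher by 6.55 (SE 0.260), Lck by 6.46 (SE 0.240), Cd3e by 6.45 (SE 0.430), Ms4a1 by 6.41 (SE 0.420) and Foxp3 by 5.35 (SE 0.379). 9 of 9 genes were called higher, where 23.1% of 18864 genes were called higher in psWAT and 19% lower. Adjusted p ran from 9.14e-23 for Lck to 3.65e-15 for Foxp3, and Lck ranked 4 of 18864 by p. The median of the 9 was 6.55 and that of all genes 0.06. Cd3e, Cd8a and Foxp3 reached the filter on low counts in fewer than 3 libraries of pgWAT and of iBAT, and passed through psWAT, so their calls add no support. For the other 6 genes pgWAT alone had enough libraries over the filter.

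Against iBAT psWAT was higher still for most. Ms4a1 differed by 9.60 (SE 0.595), Cd8a by 8.65 (SE 0.476), Cd79a by 8.46 (SE 0.496), Ccr7 by 8.41 (SE 0.418), Cd3d by 7.83 (SE 0.343), Lck by 7.37 (SE 0.283), Cd4 by 6.98 (SE 0.301), Cd3e by 5.78 (SE 0.454) and Foxp3 by 5.57 (SE 0.425) on the log2 scale. Again 9 of 9 were called higher, where 29.4% of genes were called higher and 19.7% lower, with adjusted p between 4.92e-23 and 2.74e-14. All 17 psWAT libraries lay above every iBAT library for 8 genes and 16 of 17 for Cd3e, where psWAT 8 h replicate 1 lay under iBAT 22 h replicate 2. Here as against pgWAT, the share of all genes that separate the depots so fully was not counted. The median of the 9 was 7.83 and that of all genes 0.27. The 2 comparisons share the psWAT libraries. With the mouse as a block the 9 genes were called in both as well, and without the 6 psWAT libraries of lane 7, which leaves 11, all 9 were called too. Cd3e, Cd8a and Foxp3 carry the same filter limit as against pgWAT, so their calls in these counts add no support.

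**Figure D3:**
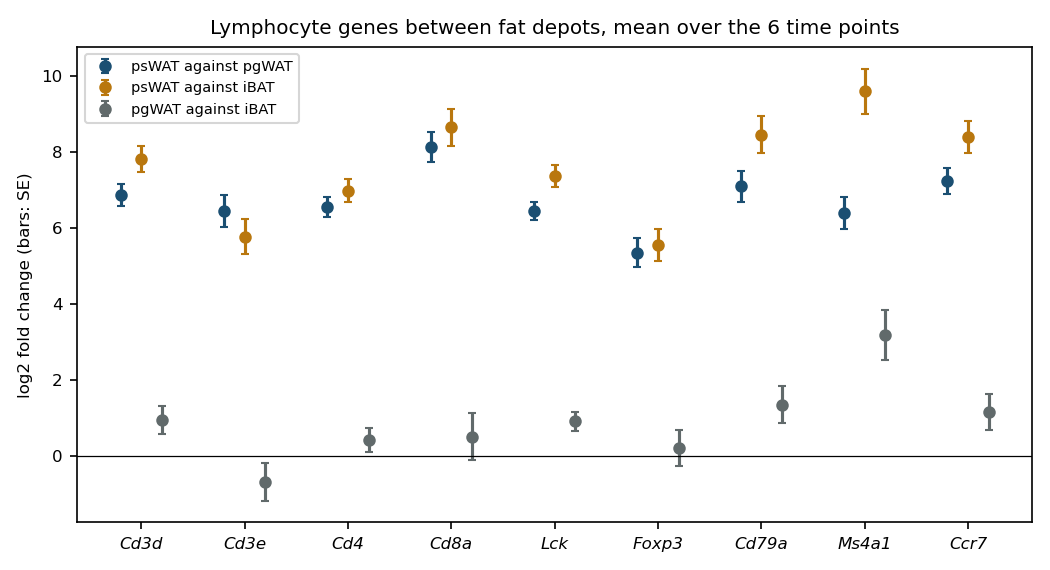
Log2 fold changes of the 9 lymphocyte genes between the fat depots, psWAT over pgWAT, psWAT over iBAT and pgWAT over iBAT, with bars for the standard error of the edgeR fit. Differences to psWAT run from 5.35 to 9.60, while those between pgWAT and iBAT lie between -0.68 and 3.20.

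Between pgWAT and iBAT, Ms4a1 was higher in pgWAT by 3.20 on the log2 scale (SE 0.659, adjusted p = 5.99e-05), with 2.18 CPM at the pgWAT median against 0.236. Cd79a was higher by 1.36 (SE 0.483, adjusted p = 0.0131) and Ccr7 by 1.17 (SE 0.474, adjusted p = 0.0284). These 3 of 9 were called higher and none lower, where 23.8% of genes were called higher and 13.7% lower, so the share of the 9 is near the background. Lck with 0.92 (SE 0.250, adjusted p = 0.00155) and Cd3d with 0.96 (SE 0.364, adjusted p = 0.0197) passed on p and missed on size. Cd8a had 0.52, Cd4 0.43, Foxp3 0.21 and Cd3e -0.68 (SE 0.494, adjusted p = 0.233), none of them called. The median of the 9 was 0.92 and that of all genes 0.12. iBAT 22 h replicate 2 weighed on these values: without it 5 of 9 were called, with Lck at 1.27, Cd3d at 1.22, Cd79a at 2.23 and Ccr7 at 2.05, and Cd3e turned to 0.54 (SE 0.793, adjusted p = 0.586). Without pgWAT 22 h replicate 2 the same count of 3 was called, without all 4 pgWAT libraries high in genes of the male reproductive tract 4 were, Cd3d being added with 1.13 (SE 0.396, adjusted p = 0.0136), and without psWAT 12 h replicate 3 Cd3d was called as well, with 1.03. With the mouse as a block 4 were called, Lck being added with 1.02 (SE 0.240).

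The marker lists were read in the same fit, where 23.1% of genes were called higher and 19% lower in psWAT against pgWAT. From psWAT to pgWAT all 20 T cell receptor and signalling genes were called higher, with a median of 5.92 on the log2 scale and among them Trbc1 (6.88), Thy1 (3.57), Cd3g (5.95) and Lat (6.41). All 18 B cell genes were higher, with a median of 6.67, among them Pax5 (8.22), the master factor of the B lineage, and Cd72 (6.27). Lymphocyte homing had 10 of 10 higher (median 5.09, Ltb 6.75), regulatory and helper T cell genes 9 of 10 (median 4.13), cytotoxic and NK cell genes 9 of 10 (median 3.23, Ccl5 5.79) and plasma cell genes 6 of 8 with 1 lower (median 3.55, Iglc2 5.88). Genes of lymph node stroma and vessels were higher in 7 of 8, with a median of 3.87 and Cxcl13 at 3.84. The median of all genes was 0.06. Some list genes reached the filter in 3 or more libraries of psWAT and of no other depot: 5 of 20 T cell genes (Cd5, Cd6, Cd28, Cd8b1 and Themis), 4 of 10 regulatory and helper genes (Ctla4, Icos, Cd40lg and Tigit), 3 of 18 B cell, 2 of 10 cytotoxic, 3 of 10 homing, 5 of 8 stroma and 2 of 7 neuron genes. In the same way all 6 genes of the male reproductive tract, Tnfrsf17 of the plasma cell list, Rbfox3, Fgb and Atp4a passed through pgWAT alone, and Cpt1b, Atp4b and 5 of 6 pancreatic genes through iBAT alone. All these were tested because of the depot where they were high, so they add no support to the counts and medians of their lists, here or in the other pairs of depots. Of the thymic list 3 genes were tested, of which Dntt and Aire passed in this way too, and Cd1d1 (-2.03) was lower.

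Other cell types went both ways. Pan-leukocyte genes were higher in 8 of 8 (median 3.55) and dendritic cell genes in 7 of 8 (median 3.20), while macrophage genes were lower in 6 of 10 (median -1.28, Cd163 -2.89). White adipocyte genes were lower in 8 of 8 (median -2.55, Adipoq -3.41) and red blood cell genes in 5 of 5 (median -2.64). Brown adipocyte genes were higher in 4 of 6 (median 2.62) and skeletal muscle genes in 6 of 6 (median 8.24). Hepatocyte genes were lower in 4 of 6 (median -3.22), and interferon gamma response genes higher in 4 of 6 (median 1.34). Neuron and glia genes were higher in 4 and lower in 1 of 7 (median 2.29). Single genes were called lower in the keratinocyte (1 of 4, median -0.70), gastric (1 of 2) and pancreatic lists (1 of 6). Tnp1, Lcn5 and Spag11b of the male reproductive tract were at 0 in all psWAT libraries. The part of these cell types in the depot differences was not tested.

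Against iBAT, where 29.4% of genes were called higher in psWAT and 19.7% lower, the counts were close to those against pgWAT for lymphocytes and carry the same limit: 20 of 20 T cell, 18 of 18 B cell, 8 of 8 plasma cell, 10 of 10 cytotoxic, 9 of 10 homing and 8 of 10 regulatory and helper T cell genes were higher in psWAT, with medians of 7.72, 8.82, 7.61, 5.06, 6.24 and 5.17 and 1 regulatory and helper gene lower. Stroma and vessel genes were higher in 8 of 8, of which Ccl19, Madcam1 and Tnfsf11 had no count in any iBAT library. From pgWAT to iBAT, where 23.8% of genes were called higher in pgWAT and 13.7% lower, smaller differences in the same direction were found, with 15 of 20 T cell (median 1.84), 16 of 18 B cell (median 1.91), 8 of 8 plasma cell (median 3.84), 8 of 10 cytotoxic (median 1.60) and 6 of 10 homing genes (median 1.45, 1 lower) higher in pgWAT, against a median of all genes of 0.12. Regulatory and helper T cell genes split there, 2 higher and 3 lower of 10 (median 0.24). Some genes of the T cell list were far above their pgWAT median in their highest library, such as Tcf7 (75.4 against 3.82 CPM) and Lef1 (32.8 against 0.460 CPM). The counts here include all pgWAT libraries. Macrophage genes were higher in pgWAT in 10 of 10 (median 2.85), and brown adipocyte genes lower in 6 of 6 (median -8.58).

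The balance between genes was described by 2 ratios. The log2 ratio of Cd79a to Cd3e, with 0.5 CPM added to each, had a mean of 2.42 ± 0.51 in psWAT (SD, n = 17), 1.24 ± 0.91 in pgWAT (n = 18) and -0.01 ± 0.66 in iBAT (n = 17). All 3 depots differed by a two-sided permutation test, with differences of 1.19 for psWAT to pgWAT (p = 5e-05, adjusted over 6 tests 0.0001), 2.43 for psWAT to iBAT (p = 1e-05, adjusted 3e-05) and 1.24 for pgWAT to iBAT (p = 9e-05, adjusted 0.000135). In iBAT Cd79a and Cd3e had medians of 0.430 and 0.292 CPM, below the 0.5 CPM added. With that offset the ratio was highest in psWAT and lowest in iBAT. The tests of the ratios did not pair the depots of the same mouse. It rests on 1 pair of genes, since from psWAT to pgWAT Ms4a1 differed by less than Cd3d, Lck and Cd8a did. The first difference depends on the offset, since with 0.1 CPM added it was 0.59 with an adjusted permutation p of 0.148. The log2 ratio of Cd8a to Cd4 had a mean of 0.55 ± 0.32 in psWAT, -0.65 ± 0.65 in pgWAT and -0.37 ± 0.81 in iBAT. psWAT exceeded pgWAT by 1.197 (permutation p = 1e-05, adjusted 3e-05) and iBAT by 0.92 (permutation p = 0.00017, adjusted 0.000204), and pgWAT and iBAT differed by -0.28 (permutation p = 0.272, adjusted 0.272). By the mean ratio Cd8a thus lay above Cd4 in psWAT and below it in the other depots, where Cd8a lay close to the detection limit. The tests compared depots and not the 2 genes within a depot.

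Fasting time was tested in each organ over the 6 time points together, called at an adjusted p under 0.05, and as the mean of 18 and 22 h against 0 h, called at an absolute log2 fold change over 1 as well. In OB, STM, LIV and pgWAT all fed libraries came from 1 lane and all late ones from another, so a late difference there and a difference of lanes cannot be told apart by this test. Only the 8 h libraries in OB, STM and LIV, and the 12 h libraries in pgWAT, held both of these lanes. Fits there with lane as a factor take the lane difference from that 1 time point. In iBAT 18 h replicate 2 and the kept 22 h libraries came from lanes without a fed library, so for them lane and fasting time cannot be told apart. Of 81 pairs of gene and organ, 27 passed the filter on low counts: 9 genes in psWAT, 6 in pgWAT, 4 in LIV, 2 each in BRN, STM and iBAT, 1 each in OB and BST and 0 in CBL.

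In psWAT no lymphocyte gene was called over fasting time. The late fold changes on the log2 scale were 0.37 for Cd3d, -0.49 for Cd3e, 0.33 for Cd4, 0.09 for Cd8a, 0.41 for Lck, 0.06 for Foxp3, -0.18 for Cd79a, -0.38 for Ms4a1 and 0.03 for Ccr7, with SE from 0.413 to 1.00. By edgeR 0 of 9 were called over time (adjusted p from 0.399 to 0.912), where 0% of 16721 genes were called, and 0 of 9 late against fed, where again 0% were called. At an unadjusted p under 0.05 stood 3195 genes over time and 867 late against fed, none of the 9 among them, and DESeq2 called 2053 and 3 genes and none of the 9.

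In pgWAT Cd3d had 0.958, 0.564 and 0.416 CPM in the fed mice, 3.28, 3.50 and 0.907 CPM at 18 h and 1.22, 1.09 and 1.62 CPM at 22 h. It was higher in 5 of 6 late libraries than in every fed one. The late log2 fold change was 1.64 (SE 0.630), with an unadjusted p of 0.0197 and an adjusted p of 0.165 by edgeR, and so was not called. With lane as a factor it was 1.88 (SE 1.17, adjusted p = 0.719). Cd3d reached the filter in 3 late libraries, in 2 of other times and in no fed one, so it was tested only because of the late libraries, and these values are no support for a change. Cd4 had -0.75 (SE 0.515), Ccr7 0.41, Cd79a 0.28, Lck 0.27 and Ms4a1 -0.24. Of 6 tested genes 0 were called over time, where 0% of 16412 genes were, and 0 late against fed, where 0.00609% were. Cd3d alone was under an unadjusted p of 0.05, in the late comparison, and DESeq2 called 0 of 6 in both. Over time 1693 genes had an unadjusted p under 0.05, and DESeq2 called 550.

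Lck was called higher late in the fast in iBAT, a call that rests on few counts and on the filter. It reached the filter of 1.04 CPM in 3 late libraries, in 12 h replicate 3 and in no other, so it was tested only because of the libraries where it was high, and the call is no support for a change. The fed libraries had 0.370, 0.264 and 0.522 CPM (6, 4 and 5 counts), those of 18 h 1.08, 1.501 and 0.585 CPM (30, 14 and 6 counts) and the 2 kept at 22 h 9.82 and 1.02 CPM (31 and 9 counts). Every late library lay above every fed one (the share of all genes doing so was not counted), and 22 h replicate 2 lay far above the rest. Between them, 2 h and 8 h libraries had 0.225 to 0.743 CPM, and 12 h had 0.484, 0.565 and 2.29 CPM. The late log2 fold change was 2.46 (SE 0.746, adjusted p = 0.0286), and over the 6 time points the adjusted p was 0.0206. The call covers 1 of 2 tested genes over time, where 29% of 14529 genes were called, and 1 of 2 late against fed, where 9.60% were. Cd3e, the other tested gene, had 2.01 (SE 1.06, adjusted p = 0.174), and it too reached the filter in no fed library, in 2 late ones and in 1 other.

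Of the 17 iBAT libraries left out one by one, 12 left the late call of Lck in place and 5 ended it. Without 22 h replicate 2 the log2 fold change was 1.29 (adjusted p = 0.196), without 0 h replicate 1 2.50 (0.0669), without 0 h replicate 2 2.26 (0.133), without 0 h replicate 3 2.62 (0.0540) and without 18 h replicate 2 2.32 (0.0520). Over the 6 time points the adjusted p was 0.464 without 22 h replicate 2 and 0.0705 with the replicate block. In 22 h replicate 2 the other genes were at 4.44 CPM for Cd3d, 4.12 for Cd3e, 5.07 for Cd8a, 1.58 for Cd4 and 1.27 for both Cd79a and Ccr7, and Foxp3 and Ms4a1 were at 0. Its 10 cytotoxic and NK cell genes summed to 31.7 CPM, led by Ccl5 at 13.6 CPM, against 1.86 to 9.97 CPM in the other kept iBAT libraries.

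**Figure D4:**
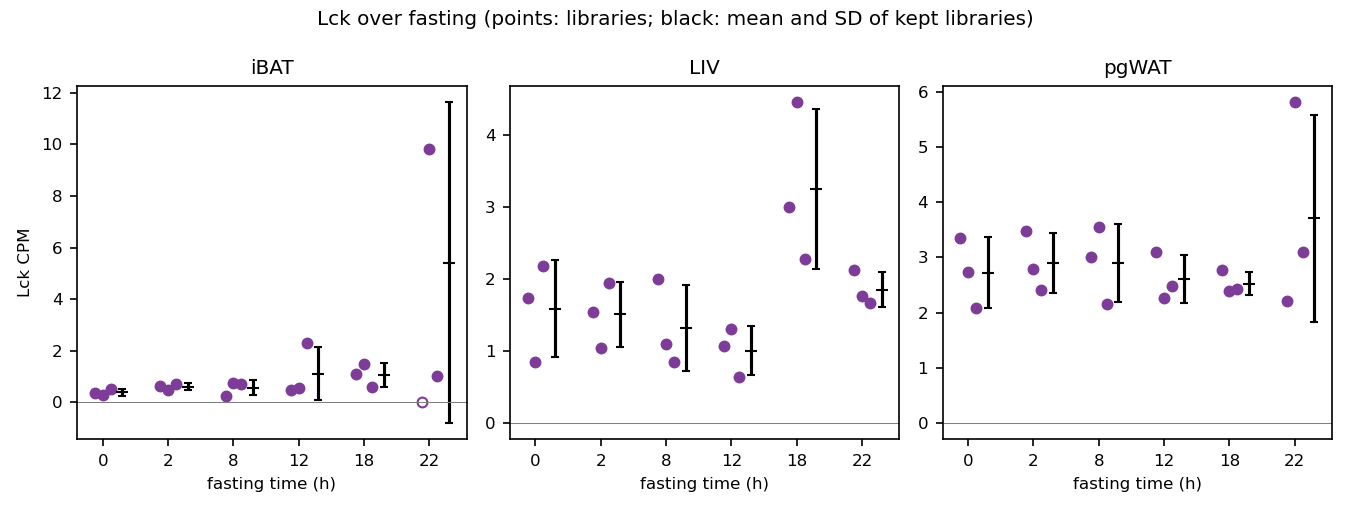
Lck in CPM by hours of fasting in iBAT, LIV and pgWAT, with a point for each library (hollow for the one that the study left out) and black bars for mean and SD of the kept libraries. The iBAT mean at 22 h rests on 2 libraries with 9.82 and 1.02 CPM.

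Whether the late change differed between depots was tested directly. For Lck the change in psWAT minus that in iBAT was -1.94 on the log2 scale (SE 0.737, adjusted p = 0.156) and that in pgWAT minus that in iBAT -2.13 (SE 0.766, adjusted p = 0.398). By edgeR 0 of 9 genes were called for psWAT against pgWAT, where 0% of genes were called, 0 of 9 for psWAT against iBAT (0.838%) and 0 of 9 for pgWAT against iBAT (0.0212%). At an unadjusted p under 0.05 stood 0, 1 and 1 of the 9 genes, and DESeq2 called 0 in each. The late difference in iBAT is therefore not shown to be other than in the other depots.

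Liver held 4 tested genes and none was called. Lck had 1.73, 0.848 and 2.18 CPM in the fed mice, 3.00, 4.45 and 2.28 CPM at 18 h and 2.13, 1.76 and 1.67 CPM at 22 h, so that the 18 h group was above all others and the 22 h group was back among the fed values. Over time its adjusted p was 0.0847 by edgeR and 0.0483 by DESeq2, the only member call that DESeq2 made there. Cd4 had 2.35, 2.06 and 4.91 CPM in the fed mice, 4.23, 1.44 and 0.891 CPM at 18 h and 0.957, 1.53 and 1.56 CPM at 22 h, lower than every fed value in 5 of 6 late libraries, with a late log2 fold change of -0.93 (SE 0.443, adjusted p = 0.182) that was not called and that turned to 0.39 (SE 0.886, adjusted p = 0.884) with lane as a factor. Cd79a had 0.37 and Ms4a1 -0.24. So 0 of 4 were called over time, where 16.0% of 14023 genes were, and 0 of 4 late, where 1.66% were, with 1 of 4 under an unadjusted p of 0.05 in each. The lists had calls in LIV: 4 of 12 tested B cell genes over time (Ighd, Cd37, Cd79b and Fcer2a, adjusted p = 0.00303, 0.0143, 0.0226 and 0.0489), 2 of 7 homing genes (S1pr1 and Klf2) and 1 of 4 cytotoxic genes (Klrk1). With lane as a factor Ighd was called over time (adjusted p = 0.0187) and the other 6 were not. In LIV the lane difference in these fits comes from the 8 h libraries alone. Late in the fast S1pr1, the receptor by which lymphocytes leave lymph nodes and which endothelium also carries, was called lower by 1.12 (SE 0.157, adjusted p = 0.000405), and with lane as a factor it had -1.08 (SE 0.321, adjusted p = 0.125) and was not called.

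Elsewhere few of the genes could be tested. In BRN Cd4 had a late log2 fold change of -0.55 (SE 0.379, adjusted p = 0.348) and Lck 0.11, with 0 of 2 called over time (0.00597% of genes) and 0 of 2 late (5.14%). STM gave 0.95 for Cd4 (SE 1.03) and 0.17 for Lck, with 0 of 2 called over time (6.55%) and 0 of 2 late (7.09%). Lck, the only gene tested in OB and in BST, had -0.16 in OB, with 0 of 1 called over time (15.4%) and late (0.173%), and 0.13 in BST, with 0 of 1 called over time (0.107%) and late (0.00596%). In CBL 0 genes were tested, and 2.99% of genes were called over time and 0.0689% late. By edgeR none of these tests had an unadjusted p under 0.05 and DESeq2 called 0. Among the lymphocyte lists STM had Thy1 (1 of 5 T cell genes) higher by 1.15 late (SE 0.342, adjusted p = 0.0334), Chst4 (1 of 3 stroma genes) with -2.40 (SE 0.680, adjusted p = 0.0321) and Iglc1 (1 of 6 plasma cell genes) called over time, none of them with lane as a factor. Iglc1 reached the filter in 3 libraries, none of them fed or late, so its call is no support. CBL had Ptpn22 (1 of 7 T cell genes) called over time. In iBAT Gzma and Ccl5, of 4 tested cytotoxic genes, were called higher late by 3.43 (SE 0.863, adjusted p = 0.0130) and 2.104 (SE 0.654, adjusted p = 0.0318), where 9.60% of all genes were called. They reached the filter in 3 libraries each, of which 2 and 3 were late, so these calls are no support. Without 22 h replicate 2 Gzma had 2.25 (SE 0.783, adjusted p = 0.0725) and Ccl5 was not tested. Over time Cd52 and Coro1a of 8 pan-leukocyte genes were called, no more than the 29% of all genes, and without that library neither was (adjusted p = 0.228 and 0.208). In pgWAT, psWAT and BST no gene of the 22 lists was called in either test.

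The promoters of the genes are described here, and their part in the levels was not tested. Promoter windows from RefSeq (GRCm38.p6, 250 bases before to 50 after the start) were found for 6 of the 9 genes, with 8 windows in all, and Cd4, Ms4a1 and Ccr7 had no entry. Both strands were searched for 6 motifs: ETS (GGAAGT), RUNX (TGTGGT), octamer (ATGCAAAT), TATA box (TATAAA), GC box (GGGCGG) and a palindromic EBF motif of 10 letters. No 2 matches overlapped in the windows printed. Of 32851 promoter windows 23.8% held GGAAGT, 16.8% TGTGGT, 1.74% ATGCAAAT, 0.904% the EBF motif, 13.6% TATAAA and 35.7% GGGCGG. The ETS motif was found for 4 of the 6 genes (Cd3d, Cd3e, Lck and Cd79a), TGTGGT and GGGCGG for Lck alone, TATAAA for Foxp3 alone, ATGCAAAT and the EBF motif for none, and Cd8a held none of the 6 motifs. The windows of the 4 genes with GGAAGT follow 5′ to 3′, as those in which a motif recurs in T cell and B cell genes, with motif letters in capitals. Cd3d (chr9:44981536-44981835, plus strand) and Cd3e (chr9:45009562-45009861, minus strand) have the reverse match ACTTCC, Lck (chr4:129573592-129573891, minus strand, the first of 2 windows) has TGTGGT and then GGAAGT, and Cd79a (chr7:24897247-24897546, plus strand) has GGAAGT. A match is a description of letters and not of a bound site.
Cd3d: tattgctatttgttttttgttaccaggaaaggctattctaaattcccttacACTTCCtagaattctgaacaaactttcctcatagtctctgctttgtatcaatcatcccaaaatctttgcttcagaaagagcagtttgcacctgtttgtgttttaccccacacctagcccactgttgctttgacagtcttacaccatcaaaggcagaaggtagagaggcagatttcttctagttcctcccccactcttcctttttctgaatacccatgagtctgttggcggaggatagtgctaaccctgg
Cd3e: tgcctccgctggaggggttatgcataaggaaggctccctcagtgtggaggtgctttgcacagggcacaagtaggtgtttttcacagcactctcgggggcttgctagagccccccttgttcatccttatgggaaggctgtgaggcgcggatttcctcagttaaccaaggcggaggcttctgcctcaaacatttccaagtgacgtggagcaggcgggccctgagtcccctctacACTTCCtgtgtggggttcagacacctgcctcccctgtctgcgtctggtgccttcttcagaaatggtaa
Lck: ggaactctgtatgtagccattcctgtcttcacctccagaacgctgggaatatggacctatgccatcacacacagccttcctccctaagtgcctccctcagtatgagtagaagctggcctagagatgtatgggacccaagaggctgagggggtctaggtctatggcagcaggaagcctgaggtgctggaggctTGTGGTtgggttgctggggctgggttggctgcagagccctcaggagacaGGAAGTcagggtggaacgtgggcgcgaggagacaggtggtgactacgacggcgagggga
Cd79a: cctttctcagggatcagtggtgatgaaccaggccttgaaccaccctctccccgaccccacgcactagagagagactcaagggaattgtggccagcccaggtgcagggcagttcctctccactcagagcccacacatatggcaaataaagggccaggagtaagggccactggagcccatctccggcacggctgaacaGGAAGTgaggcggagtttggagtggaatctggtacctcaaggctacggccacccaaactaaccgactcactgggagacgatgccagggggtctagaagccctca

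These values carry limits. Each time point had 3 mice, and 2 kept libraries at 22 h in iBAT and psWAT. Outside psWAT most of the 9 genes had counts too low to test, so a missing call there says little about lymphocytes. Bulk RNA gives no cell numbers and does not show which cells carry a gene. In psWAT, tissue make-up, lane and mouse cannot be told apart, and whether lymph node tissue was in the samples was not tested. The calls of Lck in iBAT depend on single libraries. Comparisons of white fat with the other organs also carry a difference of extraction.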

How the data were processed

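The files hold raw gene counts that the authors made with HTSeq 0.9.1 from unique TopHat2 2.1.1 alignments to GRCm38.p5, 1 deposited table of counts for 162 libraries. Lane is read from the library names in the sample descriptions. Levels are CPM of raw totals, or CPM per kb of merged exon (Gencode M21). Tests used edgeR 4.0.16 (TMM, robust quasi-likelihood F tests) per organ and in 1 fit of the 3 fat depots, with DESeq2 1.42.0 as an alternative, limma 3.58.1, R 4.3.3, Python 3.11.15, pandas 2.3.3, numpy 2.4.6 and matplotlib 3.10.9. Genes had to reach, in at least 3 libraries, the CPM of 10 counts at the median total. Adjusted p are Benjamini-Hochberg. Permutation tests used 100000 draws. The 9 genes and the 22 marker lists were chosen with earlier results of these data known. Named are the 9 genes, up to 4 called genes of each list with the smallest adjusted p, and the 10 genes most like Cd3e and most like Cd79a over psWAT libraries, of which 3 genes are not reported here. Replicate numbers mark the same mouse across organs per the labels, not across times. Residuals of the same mouse had a mean correlation of 0.0703 (psWAT and pgWAT), -0.000607 (psWAT and iBAT) and 0.0368 (pgWAT and iBAT). The code was tested on simulated data.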

Additional observations from a re-analysis of the deposited data

Results flagged for a closer look

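Libraries that the study left out were read for the same 9 genes. STM 12 h replicate 3 (4.59 M, in mega-counts) had 1.31 CPM of Cd4 and 1.53 CPM of Lck, from 6 and 7 counts, above the highest fed STM values of 0.664 and 1.06 CPM. iBAT 22 h replicate 1 (2.70 M) had 5.18 CPM of Cd3d (14 counts) and 3.70 CPM of Ccr7 (10 counts) and no count of the other 7 genes, with fed values of at most 0.313 and 0.264 CPM. In psWAT 22 h replicate 2 (2.94 M) Lck stood at 492 CPM (1449 counts), above the highest fed psWAT value of 324 CPM. These were flagged as values above the fed range in libraries that the study left out, and the counts are few outside psWAT. Kept libraries of other times reached more for 3 of them, with up to 3.72 CPM of Cd4 and 1.63 CPM of Lck in STM and 554 CPM of Lck in psWAT, and less in iBAT, with up to 4.44 CPM of Cd3d and 1.27 CPM of Ccr7. What lies behind them was not tested.

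A difference between groups was flagged for Gzma of the cytotoxic and NK cell list. Its late change in psWAT minus that in iBAT was -3.30 on the log2 scale (SE 0.836, adjusted p = 0.0486). Gzma had 0.123, 0.674 and 9.82 CPM in iBAT (lowest, median, highest) and 1.73, 7.15 and 19.1 CPM in psWAT. The highest iBAT value is that of 22 h replicate 2, and without this library the difference was -2.16 (SE 0.785, adjusted p = 0.212) and was not called. What lies behind it was not tested.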

How the results depend on the processing

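Results were repeated under other tests, scalings, filters and sets of libraries, some of which were chosen after seeing the data: the depots and the order of organs without each replicate number, the depots without psWAT lane 7, without single libraries or without the 4 pgWAT libraries high in genes of the male reproductive tract, single lanes in psWAT, and the list genes called over time. Of 332 repeats of main results 305 stayed the same, 26 moved and 1 was weaker, and of the repeats of values for single genes 429 stayed the same, 20 were stronger, 14 weaker and 3 reversed. The 9 genes were called higher in psWAT against both other depots under every alternative, with log2 fold changes of 5.10 to 8.60 against pgWAT and 5.23 to 10.41 against iBAT. Of these, Cd3e, Cd8a and Foxp3 reached the filter in fewer than 3 libraries of pgWAT and of iBAT, so their calls add no support.

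Lck in iBAT did not hold. Over the 6 time points 1 gene was called in the fit as reported, 2 without a filter (Cd3d and Lck), and 0 with all libraries, 0 without iBAT 22 h replicate 2 and 0 to 1 without a replicate number. Late against fed 0 were called with all libraries (2.19, adjusted p = 0.0912), 0 to 1 without a replicate number, 0 without 0 h replicate 1, 2 or 3, 18 h replicate 2 or 22 h replicate 2, and 2 without 22 h replicate 3. The cause was not tested. In LIV over time 1 gene was called by DESeq2 (Lck) and 1 without a filter (Cd4), against 0. The difference of late changes between psWAT and iBAT had 0 to 1 called without a replicate number (Lck, without replicate 3). The cause was not tested.

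With the replicate block 0 genes were called over time in iBAT, where Lck had an adjusted p of 0.0705. Outside the depots the numbers pair no mice over time (mean correlation of same numbers 0.157 in iBAT and -0.0751 in psWAT). With the mouse as a block 4 genes instead of 3 were called for pgWAT against iBAT, and no other call changed.

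For pgWAT against iBAT, 3 in the fit as reported, 5 genes were called by DESeq2, 5 with DESeq2 size factors, 6 with library totals, 5 without iBAT 22 h replicate 2, 4 without the 4 pgWAT libraries and 2 to 5 without a replicate number. Library totals moved the median of all genes from 0.12 to 0.77 there, from 0.06 to 0.24 for psWAT against pgWAT and from 0.27 to 1.09 for psWAT against iBAT, and size factors moved the first to 0.25. With library totals 84.8% of the genes called there were higher, and 84.5% for psWAT against iBAT, against 63.5% and 59.9%. Cd3e turned from -0.68 to 0.54 without iBAT 22 h replicate 2 and to 0.47 without replicate 2 (adjusted p = 0.586 and 0.689), and was -0.87 without replicate 1. Late Cd4 in LIV turned from -0.93 to 0.39 with lane as a factor (SE 0.886, adjusted p = 0.884), where the lane difference comes from the 8 h libraries alone. The cause was not tested.

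Of the 72 neighbour pairs of organs 16 to 21 differed without a replicate number and 28 with mean TMM levels, against 25, and fewer libraries per organ were at hand in the former. By mean TMM level psWAT stayed first for all 9 genes and 2 to 8 positions changed per gene, with iBAT next for Cd3e and Cd8a and LIV above pgWAT for Lck and Cd79a. For Cd3e and Cd79a over psWAT libraries r was 0.939 in all, 0.894 in lane 5 (permutation p = 0.0580) and 0.966 in lane 7 (exact permutation p = 0.0139). The B to T ratio between psWAT and pgWAT was 0.59 with an offset of 0.1 CPM (adjusted permutation p = 0.148). Lane as a factor could not be fitted in iBAT and was not run. Outside psWAT 18 of 72 pairs of gene and organ passed the filter.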
